A study of Mus musculus with 2 samples.

Results

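A set of 9 genes that carry dopamine and cyclic nucleotide signals in the striatum was followed across the cell classes of dissociated mouse striatum. They were the receptors *Drd1*, *Drd2* and *Adora2a*, the G protein subunit *Gnal*, the adenylyl cyclase *Adcy5*, the phosphodiesterases *Pde10a* and *Pde1b*, the G protein regulator *Rgs9* and the kinase target *Ppp1r1b*. They were taken by symbol from the gene list of the count matrices, 9 of 32285 genes. Single-cell RNA was measured with 10x Genomics chemistry in 2 libraries, replicates 1 and 2 of 1 condition. Both came from striatum of untreated C57/Bl6J mice aged 8 to 10 weeks by the labels, with no transgene or deletion named, and the labels call the cells glia-enriched. The dissociation favoured non-neuronal cells, so the neurons described here are those that came through it. How many mice went into each library is not given in the labels. The p-values below rest only on how class sums varied between these 2 libraries beyond an overall library difference, pooled over the classes. That spread may be technical.

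The libraries held 6978 and 5437 barcodes with 44597660 and 37982720 UMIs (unique molecular identifiers, 1 for each captured RNA molecule), and 9 barcodes occurred in both. After filtering, 6817 and 5206 cells were grouped into 13 classes named by marker genes, with the 9 members and 98 further pathway genes left out of the clustering. Every marker was higher inside its class than outside it in both libraries. The same markers named the classes, so this is no separate check of the names. Neuron-like cells numbered 342 and 261, with a median of 3136 and 2632 UMIs and a median mitochondrial share of 10.5 and 13.9%. The neuron cluster of the first clustering held 191 and 171 of them. The others came from dividing clusters of mixed markers, a step chosen after seeing the data. The neuron-like cells included 84 cells (57 and 27) of a sub-cluster led by *C1qc*, *Sparc* and *C1qa*, genes known from glia, with *Pde10a* at 701 and 618 CPM. Without that sub-cluster, an alternative chosen after seeing the data, 99 pairs of a member and a class passed for neuron-like cells, 17 outside neurons and 3 members between the peptide groups, the counts given below with it. Erythroid-like cells, with 11 in library 2, were left out of the tests, so 12 classes were compared. Levels are CPM, the UMIs of a gene summed over a class in a library, divided by all UMIs of that class and library and put on the usual CPM scale, given for library 1 and then library 2, or as mean ± SD (n = 2 libraries). Levels were compared between classes for 1 gene and not between genes.

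In spiny projection neurons of the striatum, dopamine acts on D1 receptors of the direct pathway, which raise cyclic AMP, and on D2 receptors of the indirect pathway, which lower it. The adenosine receptors of *Adora2a* raise cyclic AMP in indirect-pathway neurons. Gαolf, the product of *Gnal*, passes the signal of *Drd1* and *Adora2a* to adenylyl cyclase, phosphodiesterases break cyclic nucleotides down, RGS9 speeds the shut-off of inhibitory G proteins, and the cyclic AMP-dependent kinase phosphorylates DARPP-32, the product of *Ppp1r1b*. Direct-pathway neurons make the peptides of *Tac1* and *Pdyn*, and indirect-pathway neurons that of *Penk*.

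On GRCm38 (GENCODE M21), *Drd1* lies at chr13:54051183-54055705 on the minus strand, *Drd2* at chr9:49340627-49408177 and *Adora2a* at chr10:75316877-75334784 on plus strands. *Adcy5* (chr16:35154877-35305738), *Pde10a* (chr17:8525372-8986648), *Pde1b* (chr15:103503034-103530052) and *Ppp1r1b* (chr11:98348404-98357796) are on plus strands, *Rgs9* (chr11:109225355-109298129) is on a minus strand. *Adcy5* overlaps Gm49702 on its own strand, so its counts are less certain. RefSeq promoter windows on GRCm38.p6 matched 6 of the 9 members by symbol. The 250 bases before the farthest upstream listed start are printed 5′ to 3′ on the gene's strand for both dopamine receptors, which differed between the peptide groups below, and for *Adcy5* and *Rgs9*, which did not pass that test. The bases just after the start lay whole in 2 of 3 GENCODE transcripts of *Drd1*. They lay whole in no transcript of *Drd2*, *Adcy5* or *Rgs9*, so these starts are less certain. Capitals mark the GC box (GGGCGG or, on the other strand, CCGCCC) and the CCAAT box (CCAAT or ATTGG).
Drd1, chr13:54055659-54055908, minus strand: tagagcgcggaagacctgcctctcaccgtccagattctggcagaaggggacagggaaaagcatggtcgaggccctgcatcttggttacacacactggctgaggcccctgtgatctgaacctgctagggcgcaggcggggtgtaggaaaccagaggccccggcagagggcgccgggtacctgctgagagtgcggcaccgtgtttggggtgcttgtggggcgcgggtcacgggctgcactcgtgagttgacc
Drd2, chr9:49340153-49340402, plus strand: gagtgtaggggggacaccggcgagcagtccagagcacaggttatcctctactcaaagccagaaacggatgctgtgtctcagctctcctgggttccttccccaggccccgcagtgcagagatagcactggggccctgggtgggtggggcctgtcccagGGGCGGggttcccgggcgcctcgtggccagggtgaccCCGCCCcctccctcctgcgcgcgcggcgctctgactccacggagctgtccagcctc
Adcy5, chr16:35154614-35154863, plus strand: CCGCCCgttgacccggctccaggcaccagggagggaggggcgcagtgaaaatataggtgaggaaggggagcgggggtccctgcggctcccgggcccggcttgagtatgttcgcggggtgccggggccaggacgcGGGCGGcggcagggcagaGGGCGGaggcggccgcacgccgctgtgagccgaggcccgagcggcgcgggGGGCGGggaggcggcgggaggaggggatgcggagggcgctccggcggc
Rgs9, chr11:109298182-109298431, minus strand: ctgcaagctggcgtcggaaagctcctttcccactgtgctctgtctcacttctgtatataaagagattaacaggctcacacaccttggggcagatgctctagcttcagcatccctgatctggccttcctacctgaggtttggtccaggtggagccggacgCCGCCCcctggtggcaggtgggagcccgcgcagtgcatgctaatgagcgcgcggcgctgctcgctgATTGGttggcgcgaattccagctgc
The *Adcy5* window held 4 GC boxes and 78.0% G and C, the *Drd2* window 2 GC boxes and 68.8%, the *Rgs9* window 1 GC box, 1 CCAAT box and 59.6%, and the *Drd1* window neither and 64.0%. Across all 32851 windows of this length the median was 52.4% G and C, 32.7% held a GC box and 33.9% a CCAAT box on either strand. The cyclic AMP response element (TGACGTCA, in 1.55% of all windows) was in none of the 10 windows listed for these members, and neither was its part TGACG or CGTCA (17.8% of all windows). The TATA box (TATAAA or TTTATA, in 12.4% of all windows), not set in capitals, was in the *Rgs9* window and in no other of the 10. These are letter matches, not measured sites.

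All 9 members were highest in neuron-like cells, where both values of each lay above those of the 11 other classes. The share of all genes that meet this rule was not counted. By the quasi-likelihood test of edgeR, with p-values adjusted by Benjamini-Hochberg across 15176 genes, all 99 pairs of a member and a class passed, with adjusted p at most 0.00118. Of all genes, 23.1% were higher in neuron-like than in astrocyte-like cells, 26.9% than in endothelial-like, 20% than in ependymal-like, 14.9% than in fibroblast-like, 24.8% than in macrophage-like and 29.5% than in microglia-like cells. The share was 25.1% over mural-like, 25.1% over neuroblast-like, 28.4% over oligodendrocyte-like, 22.3% over OPC-like (oligodendrocyte precursors) and 29.3% over progenitor-like cells. Against the mean of the other classes, 9 of 9 members and 27.7% of all genes were higher. The members' median log2 fold change there was 4.75, beside -0.13 for all genes.

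**Figure D1:**
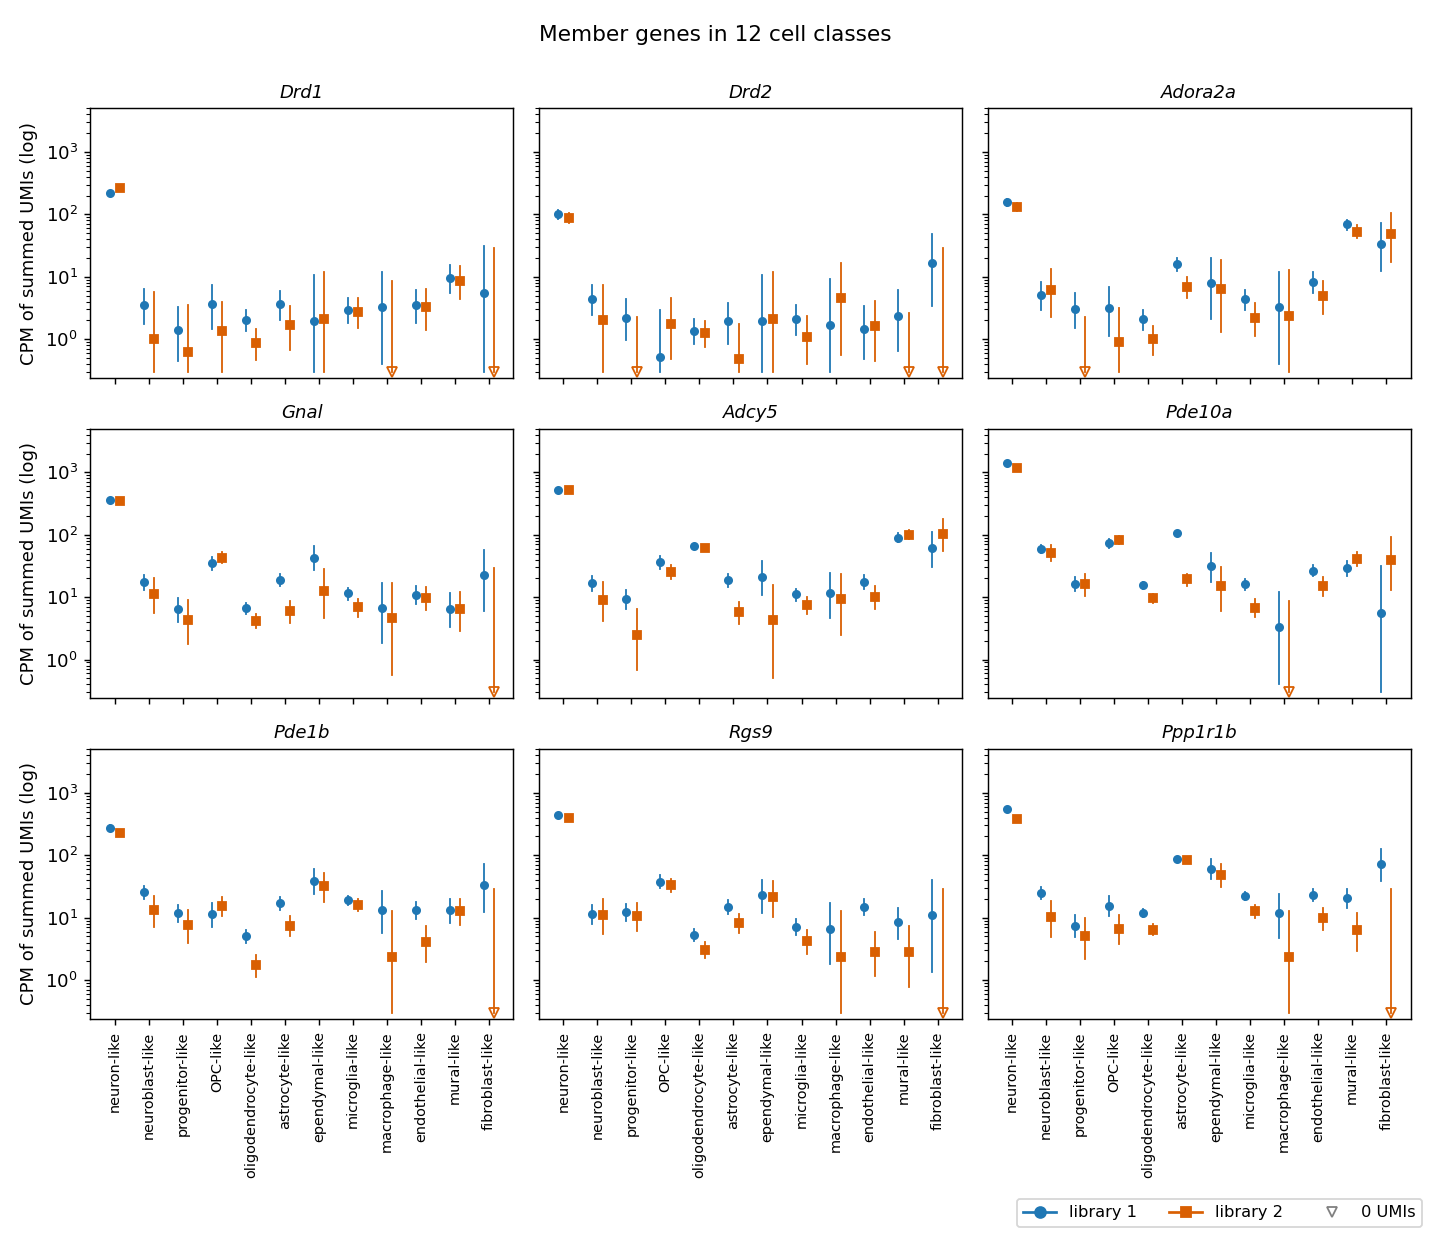
CPM of summed UMIs (log axis) of each member in 12 cell classes, library 1 as circles and library 2 as squares. Bars are 95% Poisson intervals, which cover counting error only, and open triangles mark 0 UMIs. In each panel both neuron-like values lie above all other classes.

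*Drd1*, the D1 receptor, was at 216 and 266 CPM in neuron-like cells, from 330 and 333 UMIs. In the other classes it lay between 0 and 9.57 CPM. Its log2 fold change over their mean was 6.00, SE 0.18, adjusted p = 7.3e-18 by edgeR. Neuron-like cells were 5.02% and 5.01% of the cells and held 73.0% (68.7 to 77%) and 84.5% (80.6 to 87.9%) of all *Drd1* UMIs (exact binomial intervals, counting error only).

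*Drd2*, the D2 receptor, was at 100.2 and 87.0 CPM in neuron-like cells, from 153 and 109 UMIs, with a log2 fold change of 4.91, SE 0.25, adjusted p = 4.1e-14. Elsewhere its highest value was 16.8 CPM, from 3 UMIs in fibroblast-like cells of library 1. *Adora2a*, the adenosine receptor, was at 157 and 132 CPM in neuron-like cells (4.19, SE 0.18, adjusted p = 3.8e-15) and at 68.8 and 53.0 CPM in mural-like cells, the pericytes and smooth muscle of vessels. The values of both classes did not overlap, and neuron-like cells were higher by a log2 fold change of 1.05 (SE 0.24, edgeR adjusted p = 7.0e-04). It was 1.38 without library 1 and 1.21 without library 2, with no test. The call was lost with each cell thinned to 1000 UMIs (0.067, adjusted p = 0.93). Neuron-like cells held 43.1% (38.9 to 47.3%) and 50.6% (45 to 56.2%) of all *Adora2a* UMIs, less than for *Drd1* in both libraries.

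*Gnal*, on the plus strand of chromosome 18, overlaps *Chmp1b* and AC140336.2 on that strand, so its counts are less certain. It was at 359 and 354 CPM in neuron-like cells (log2 fold change 4.75, SE 0.17, adjusted p = 2.1e-16). Its next classes were OPC-like cells at 34.8 and 43.0 CPM and ependymal-like cells at 42.9 and 12.8 CPM, which overlapped. *Adcy5* was at 524 and 524 CPM in neuron-like cells (log2 fold change 4.41, SE 0.16, adjusted p = 6.3e-16). Neuron-like cells held 33.9% (32.0 to 35.8%) and 34.1% (32.0 to 36.3%) of its UMIs and oligodendrocyte-like cells held more, 996 and 942 against 800 and 656 UMIs. Its next levels were 89.7 and 101 CPM in mural-like, 61.4 and 103 CPM in fibroblast-like (from 11 and 13 UMIs) and 67.4 and 62.6 CPM in oligodendrocyte-like cells. The fibroblast-like values spanned those of mural-like cells.

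*Pde10a*, which breaks down cyclic AMP and cyclic GMP, was at 1403 and 1170.0 CPM in neuron-like cells (log2 fold change 5.68, SE 0.21, adjusted p = 7.2e-16). *Pde1b*, a calcium- and calmodulin-dependent phosphodiesterase, was at 275 and 227 CPM (4.06, SE 0.18, adjusted p = 1.4e-14). The next classes were OPC-like cells for *Pde10a* (73.7 and 82.0 CPM) and ependymal-like cells for *Pde1b* (39.0 and 32.0 CPM), and the astrocyte-like values of *Pde10a* overlapped those of OPC-like cells. *Rgs9* was at 448 and 391 CPM (5.22, SE 0.15, adjusted p = 1.2e-17) and *Ppp1r1b* at 546 and 386 CPM (4.44, SE 0.16, adjusted p = 2.1e-16). Of the *Ppp1r1b* UMIs there, 437 of 834 and 273 of 484 lay in the 15 and 19 cells of a deep sub-cluster described below. OPC-like cells followed for *Rgs9* (37.9 and 32.8 CPM) and astrocyte-like cells for *Ppp1r1b* (85.9 and 82.9 CPM).

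The share of cells with a UMI was read after thinning each cell to 1000 UMIs, which kept 267 and 208 neuron-like and 1025 and 968 microglia-like cells, whose median depths before thinning were 3878 and 3798 UMIs in neuron-like and 7373 and 5668 UMIs in microglia-like cells. A *Pde10a* UMI was present in 53.1% ± 3.77 (SD, n = 2) of neuron-like cells, *Adcy5* in 35.3% ± 1.74, *Rgs9* in 29.6% ± 1.05, *Gnal* in 25.6% ± 0.861 and *Ppp1r1b* in 24.6% ± 10.3. *Pde1b* was present in 19.1% ± 5.88, *Drd1* in 18.9% ± 4.51, *Adora2a* in 8.21% ± 0.047 and *Drd2* in 7.03% ± 0.937. In microglia-like cells, taken as the background, the members' mean shares were 0.100 to 1.94%. The *Pde1b* share there, 1.70% ± 0.499, is a less certain background. Its level passed as higher in these cells than in the other non-neuronal classes, as given below. For *Adora2a* the mural-like share was larger than the neuron-like one, at 9.69% ± 1.61. Without thinning the neuron-like shares ran from 16.3% ± 6.28 for *Adora2a* to 59.8% ± 2.72 for *Pde10a*. The unthinned *Adora2a* share was again larger in mural-like cells, at 25.7% ± 2.17, and also in fibroblast-like cells, at 23.6% ± 9.09. With mixed clusters left unnamed, 8 of the 9 unthinned neuron-like shares moved by more than the SD between libraries. A cell without a UMI is not shown to lack the gene.

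The neuron-like cells were next divided by peptide, to ask which members differ between the projection neuron pathways. Their sub-clusters gave no class named direct- or indirect-pathway by the chosen markers, so cells with *Tac1* or *Pdyn* UMIs and no *Penk* (119 and 97 cells) were compared with cells with *Penk* and neither of the others (88 and 51 cells). The members played no part in the division. Of the members only the 3 receptors passed, *Drd1* higher in *Tac1*/*Pdyn* neurons and *Drd2* and *Adora2a* higher in *Penk* neurons. That is 1 of 9 members in the first direction, where 0.0746% of 14755 genes passed, and 2 of 9 in the other, where 0.0881% did.

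*Drd1* was at 417 and 506 CPM in *Tac1*/*Pdyn* neurons and at 16.9 and 17.5 CPM in *Penk* neurons, a log2 fold change of 4.70 (SE 0.35, edgeR adjusted p = 1.3e-10). *Drd2* was at 2.26 and 7.55 CPM, from 1 and 4 UMIs, against 265 and 273 CPM, and in the fit fell by 5.47 (SE 0.56, adjusted p = 7.8e-08) on the log2 scale. *Adora2a* was at 9.02 and 0 CPM, from 4 and 0 UMIs, where a count of 0 allows up to 5.66 CPM (3 UMIs, and the upper end of the two-sided 95% Poisson interval is 6.96 CPM), against 436 and 536 CPM, and fell by 6.58 (SE 0.55, adjusted p = 8.8e-10). For all 3 receptors the groups did not overlap, but nor did they for *Gnal*, *Pde10a*, *Pde1b*, *Rgs9* and *Ppp1r1b*. Only *Adcy5* overlapped, so this does not set the receptors apart. The share of all genes without overlap between these groups was not counted. The fitted sizes for *Drd2* and *Adora2a* depend on those few UMIs.

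**Figure D2:**
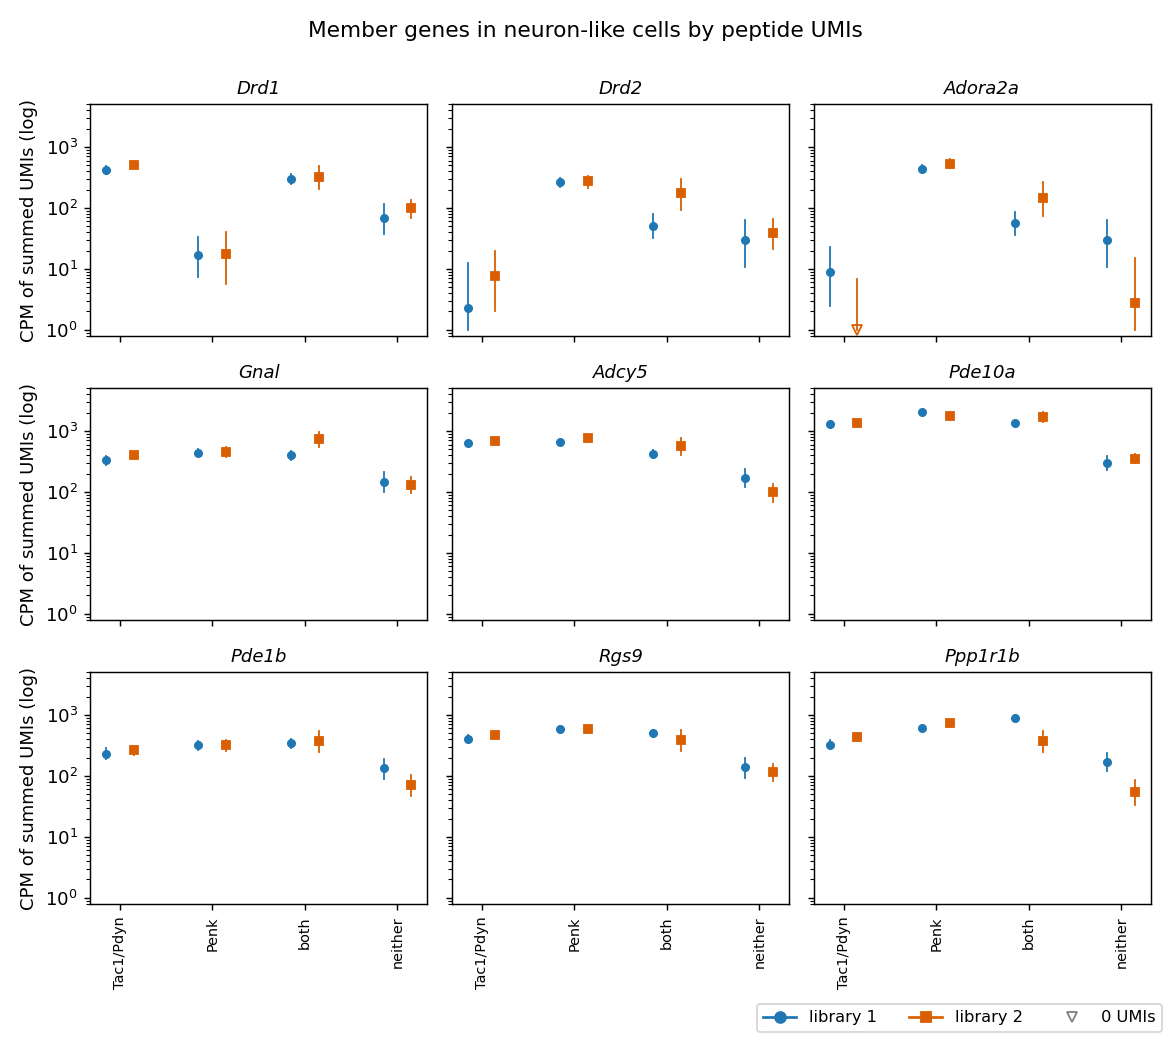
CPM of summed UMIs (log axis) of each member in neuron-like cells grouped by peptide UMIs, library 1 as circles and library 2 as squares, with 95% Poisson intervals (counting error only) and open triangles for 0 UMIs. *Drd1* is high in the *Tac1*/*Pdyn* group, and *Drd2* and *Adora2a* are high in the *Penk* group, in both libraries.

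The 6 members downstream of the receptors did not pass, which does not show them to be equal. On simulated counts this comparison recovered 7.5% of genes changed 2-fold. Those counts gave each gene its mean share over all classes, and the members are higher in neurons. The 7.5% is therefore not the rate for these members, which was not measured. The log2 fold changes of these 6 members were all below 0. They ran from -0.77 for *Ppp1r1b* (95% interval -1.40 to -0.14, edgeR adjusted p = 0.78) to -0.088 for *Adcy5* (-0.62 to 0.44). The intervals are not adjusted for the number of genes tested. *Ppp1r1b* was at 325 and 432 CPM in *Tac1*/*Pdyn* and at 610.2 and 725 CPM in *Penk* neurons. The interval was -1.20 to 0.16 for *Pde10a*, -0.87 to 0.086 for *Rgs9*, -0.91 to 0.25 for *Pde1b* and -0.80 to 0.28 for *Gnal*. The direction of *Gnal*, *Adcy5* and *Pde1b* turned with cells thinned to 1000 UMIs.

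The peptide groups also differed in other cells' genes. The *Penk* group of library 2 held *Sst* at 3827 CPM and *Npy* at 6257 CPM, peptides of an interneuron class, against 16.9 and 14.8 CPM in library 1. Without cells holding *Sst* or *Npy* UMIs the same counts of members passed, 1 and 2. Lists of oligodendrocyte, astrocyte, microglia and endothelial markers each summed to 50.9 to 1985 CPM in *Tac1*/*Pdyn* and 147 to 1087 CPM in *Penk* neurons, with 1 marker at 0, in library 2 of the *Tac1*/*Pdyn* group. Their part in the result was not tested. Cells with neither peptide had *Pde10a* at 299.8 and 353 CPM and *Ppp1r1b* at 172 and 55.1 CPM, and their marker sums reached 4016 CPM.

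Receptors of different pathways were rarely found in 1 cell. Of 603 neuron-like cells 188 held *Drd1* without *Drd2* or *Adora2a*, 127 held *Drd2* or *Adora2a* without *Drd1*, 9 held both kinds and 279 held none of the 3. *Drd2* UMIs were in 3.92% (1.08 to 9.74%) and 1.05% (0.027 to 5.73%) of *Drd1* cells, against 25.4% and 25.3% of cells without *Drd1*, although *Drd1* cells were deeper (medians 4306 and 4047 against 2340.5 and 1888 UMIs). *Drd2* was in 66.2% (54.0 to 77%) and 87.1% (70.2 to 96.4%) of *Adora2a* cells. *Pde10a* was found with both receptors, in 88.2% (80.4 to 93.8%) and 73.7% (63.6 to 82.2%) of *Drd1* cells and in 93.0% (84.3 to 97.7%) and 96.8% (83.3 to 99.9%) of *Adora2a* cells.

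Sub-clusters of the neuron-like cells are described without a test. A sub-cluster of 34 cells (7 and 27) led by *Rreb1*, *Nrp2* and *Col11a1* had *Drd1* at 331 and 526 CPM, from 5 and 29 UMIs, and *Tac1* at 4105 and 5459 CPM, with *Drd2* and *Adora2a* at 0 UMIs. It held *Rgs9* at 529.7 and 489.6 CPM from 8 and 27 UMIs and *Gnal* at 331 and 435 CPM from 5 and 24 UMIs. *Ppp1r1b* was at 132 and 54.4 CPM from 2 and 3 UMIs and *Pde1b* at 0 and 18.1 CPM from 0 and 1 UMIs. Over both libraries together their 95% Poisson intervals (counting error only) ended at 166 and 79.3 CPM. That is below the 466 and 251 CPM of all neuron-like cells, which are means of the 2 libraries and include the deep sub-cluster. The intervals of several other sub-clusters also ended below, among them the glutamatergic-like (136 and 105 CPM) and *Npy* and *Sst* ones (33.4 and 78.2 CPM) described next. Low levels of these 2 genes are thus not particular to this sub-cluster. A sub-cluster of 58 glutamatergic-like cells (36 and 22) led by *C1ql3*, *Slc17a7* and *Cck* had *Adcy5* at 80.6 and 15.7 CPM from 8 and 1 UMIs, with 3 *Rgs9* UMIs and 1 *Adora2a* UMI in all. A sub-cluster of 41 cells (8 and 33) led by *Npy*, *Sst* and *Crhbp* met the marker rule for Sst/Npy interneurons and also for cholinergic neurons, and 16 of its cells held an *Sst* and 13 an *Npy* UMI. It had *Pde10a* at 156 and 169 CPM from 3 and 25 UMIs, with 3 *Rgs9* UMIs, 1 *Ppp1r1b* UMI and no *Adora2a* UMI. The deepest sub-cluster, of 34 cells (15 and 19) led by *Crabp1*, *Th* and *Vsnl1*, had a median of 21727 UMIs. Its *Ppp1r1b* level was 1617 and 750 CPM, from 437 and 273 UMIs.

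Outside neurons the members differed in where they were next highest. Each non-neuronal class was compared with the mean of the other 10, and 17 of 99 pairs of a member and a class were higher. Mural-like cells had 3 of 9 members higher, beside 23.4% of all genes, OPC-like cells 3 beside 25.3%, astrocyte-like cells 3 beside 29.3% and ependymal-like cells 3 beside 16.9%. Fibroblast-like cells had 2 (all genes 8.2%), and oligodendrocyte-like (32.9%), microglia-like (34.6%) and neuroblast-like cells (25.4%) had 1 each. Endothelial-like (26.9%), macrophage-like (17.8%) and progenitor-like cells (27.4%) had no member higher at an adjusted p under 0.05 by edgeR. Over all classes the members' share, 17 of 99, lay within the range of these shares of all genes, 8.2 to 34.6%, and below most of them. The calls below therefore describe single genes and are no result about the members as a set.

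**Figure D3:**
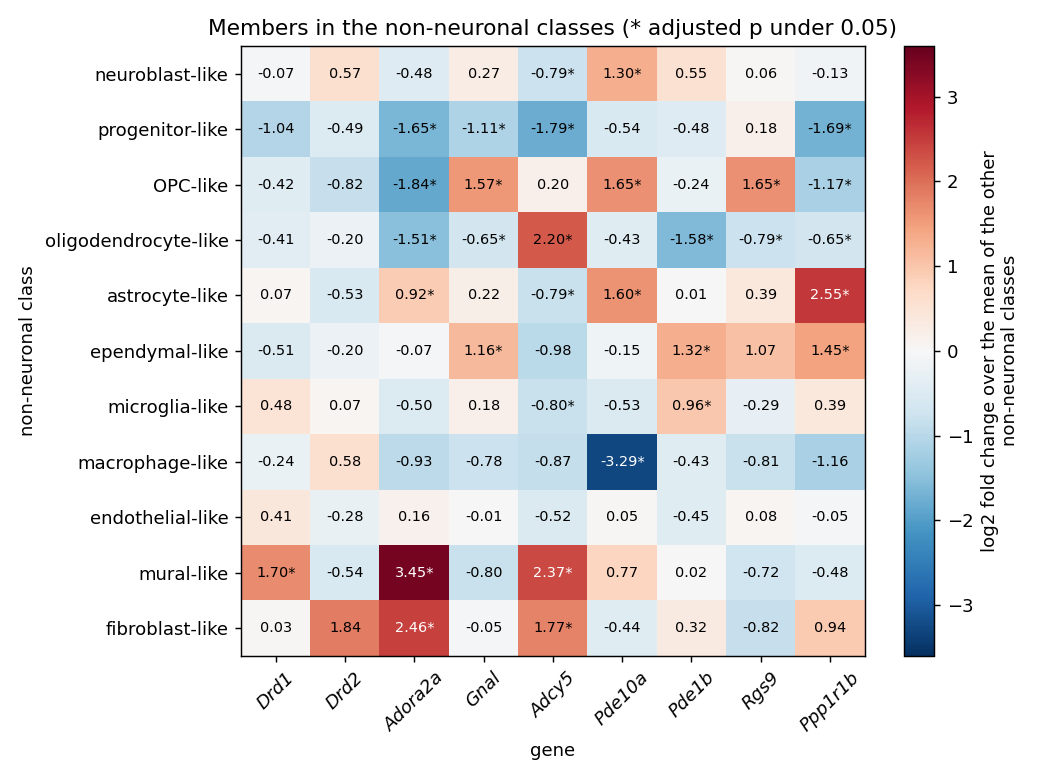
Log2 fold change of each member in each non-neuronal class over the mean of the other non-neuronal classes, from the edgeR fit, with asterisks at adjusted p under 0.05 in either direction. *Pde10a* in macrophage-like cells has the lowest value (-3.29), from 2 and 0 UMIs, and the highest are *Adora2a* in mural-like (3.45) and *Ppp1r1b* in astrocyte-like cells (2.55).

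In mural-like cells *Adora2a* was higher (log2 fold change 3.45, SE 0.22, adjusted p = 2.4e-12 by edgeR), as was *Adcy5* (2.37, SE 0.22, adjusted p = 5.3e-09). *Drd1* passed there at 9.57 and 8.47 CPM from 16 and 12 UMIs (1.70, SE 0.42, adjusted p = 6.1e-04). Mural-like cells formed 3 finer clusters, given without a test. A cluster led by *Vtn*, *Atp13a5* and *Kcnj8*, genes known from pericytes, had *Adora2a* at 139 and 127 CPM and *Adcy5* at 33.7 and 31.8 CPM. A cluster led by *Acta2*, *Tagln* and *Myh11*, contractile genes of smooth muscle, had *Adora2a* at 12.8 and 12.6 CPM and *Adcy5* at 205 and 229 CPM, with *Drd1* at 16.0 and 18.0 CPM from 10 and 10 UMIs. The receptor was thus higher in the first and the cyclase in the second, in both libraries. The third, led by *Rgs5*, *Vtn* and *Higd1b*, had *Adora2a* at 68.1 and 46.6 CPM and *Adcy5* at 9.21 and 9.71 CPM. For each *Pde10a* UMI, mural-like cells held 2.35 and 1.29 *Adora2a* UMIs and neuron-like cells 0.112 and 0.113.

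**Figure D4:**
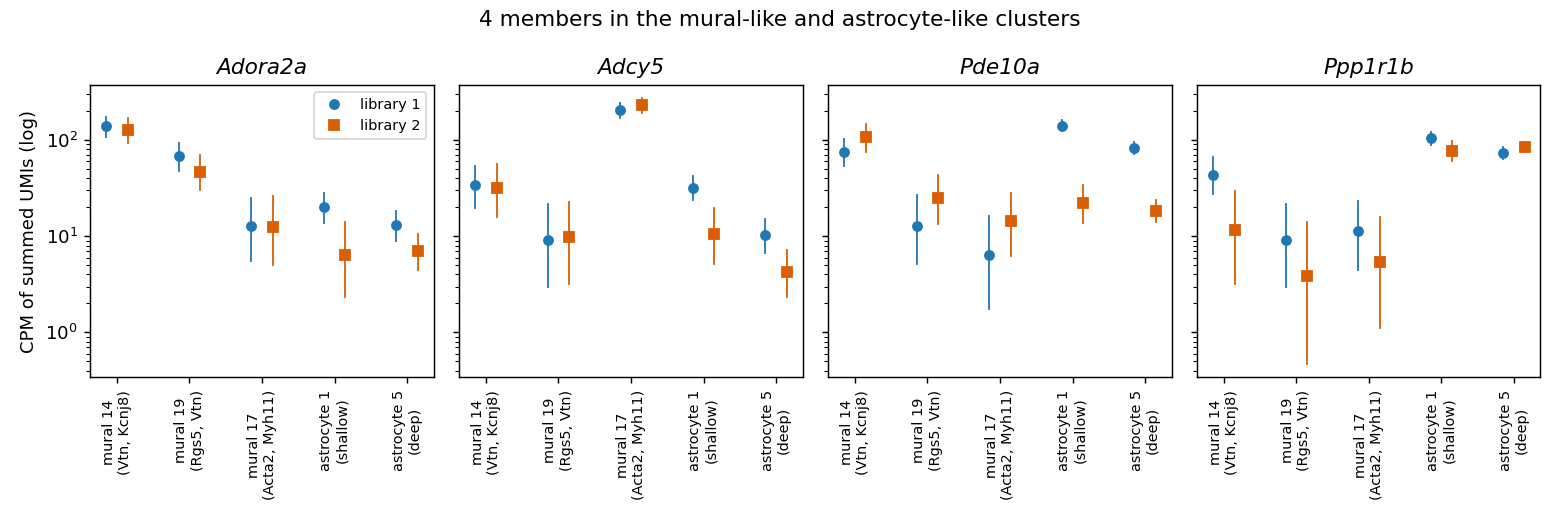
CPM of summed UMIs (log axis) of 4 members in the 3 mural-like and 2 astrocyte-like clusters, library 1 as circles and library 2 as squares, with 95% Poisson intervals (counting error only). *Adcy5* peaks and *Adora2a* is lowest among mural-like clusters in the *Acta2* cluster, and the libraries part for *Pde10a* in both astrocyte-like clusters.

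In the oligodendrocyte lineage OPC-like and oligodendrocyte-like cells passed for different members. Each was tested against the other non-neuronal classes, and the 2 were not tested against each other. OPC-like cells were higher in *Rgs9* (log2 fold change 1.65, SE 0.25, adjusted p = 4.0e-06 by edgeR), *Gnal* (1.57, SE 0.25, adjusted p = 1.1e-05) and *Pde10a* (1.65, SE 0.33, adjusted p = 2.1e-04). Oligodendrocyte-like cells were higher in *Adcy5* (2.20, SE 0.19, adjusted p = 4.7e-10 by edgeR), with *Rgs9* at 5.28 and 3.06 CPM and *Gnal* at 6.70 and 4.18 CPM. In OPC-like cells *Adcy5* was at 31.3 ± 7.86 CPM, against 65.0 ± 3.42 CPM in oligodendrocyte-like cells. *Adcy5* lay between 48.8 and 83.6 CPM in the 3 oligodendrocyte-like clusters, including the one whose leading genes hold *Bmp4* and *Gpr17*. For each *Pde10a* UMI these cells held 4.35 and 6.50 *Adcy5* UMIs, and neuron-like cells 0.373 and 0.448.

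In astrocyte-like cells *Ppp1r1b* was higher (log2 fold change 2.55, SE 0.18, adjusted p = 4.8e-11 by edgeR). Its UMIs lay in 265 of 1298 and 257 of 959 cells, with at most 5 in a cell. It was at 105 and 77.7 CPM in the shallower and 74.1 and 84.4 CPM in the deeper of the 2 astrocyte-like clusters. *Adora2a* passed at 15.8 and 6.91 CPM (0.92, SE 0.26, adjusted p = 0.0014), a call lost after thinning to 1000 UMIs. *Pde10a* passed too (1.60, SE 0.32, adjusted p = 1.4e-04), but its libraries stood apart at 106 and 19.3 CPM. These UMIs lay in 265 and 64 cells, and the gap was present in the shallower (141 and 22.4 CPM) and the deeper cluster (83.2 and 18.4 CPM). The log2 fold change was 0.34 without library 1 and 2.44 without library 2, so its size rests on library 1.

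Ependymal-like cells were higher in *Ppp1r1b* (log2 fold change 1.45, SE 0.33, adjusted p = 0.0015 by edgeR) at 60.5 and 49.1 CPM and in *Pde1b* (1.32, SE 0.42, adjusted p = 0.016) at 39.0 and 32.0 CPM. *Gnal* passed there (1.16, SE 0.43, adjusted p = 0.038) from 22 and 6 UMIs, and turned to -0.44 with the members and pathway genes kept in the clustering. Microglia-like cells were higher in *Pde1b* (0.96, SE 0.24, adjusted p = 0.0012) at 19 and 16.1 CPM, a call lost with library sizes alone (0.51, adjusted p = 0.069). Neuroblast-like cells were higher in *Pde10a* (1.30, SE 0.37, adjusted p = 0.0041) at 59.5 and 51.7 CPM. Fibroblast-like cells, 35 and 20 in number, were higher in *Adora2a* (2.46, SE 0.60, adjusted p = 0.0034) from 6 and 6 UMIs and in *Adcy5* (1.77, SE 0.51, adjusted p = 0.018). None of the ependymal-like and fibroblast-like calls held after thinning to 1000 UMIs, where few UMIs remained and the values stayed above 0. In ependymal-like cells they were 0.97 for *Ppp1r1b*, 0.67 for *Pde1b* and 0.72 for *Gnal*, from 10, 4 and 4 UMIs, and in fibroblast-like cells 1.85 for *Adora2a* and 0.66 for *Adcy5*, from 3 UMIs each. Without library 1 and without library 2, with no test, the log2 fold changes were 2.49 and 1.22 for ependymal-like *Ppp1r1b*, 2.17 and 1.17 for *Pde1b* and 0.79 and 1.58 for *Gnal*. They were 1.78 and 1.46 for neuroblast-like *Pde10a*, 1.61 and 0.58 for microglia-like *Pde1b* and 2.82 and 1.19 for fibroblast-like *Adcy5*.

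Of 98 pathway genes listed beside the members, 91 were tested, and 58 were higher and 10 lower in neuron-like cells than in the mean of the other classes, beside 27.7% and 24.1% of all genes. Their median log2 fold change was 1.59. A gene higher than this mean can still be higher in a single other class than in neuron-like cells. With library sizes alone the median of all genes moved to 0.067, all genes divided into 4921 higher and 2665 lower in place of 4200 and 3650, and the list into 60 and 8. *Slc6a3*, the dopamine transporter, *Drd3*, *Drd4*, *Drd5*, *Chrm4*, *Adcy10* and *Pde11a* were too low to test.

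**Figure D5:**
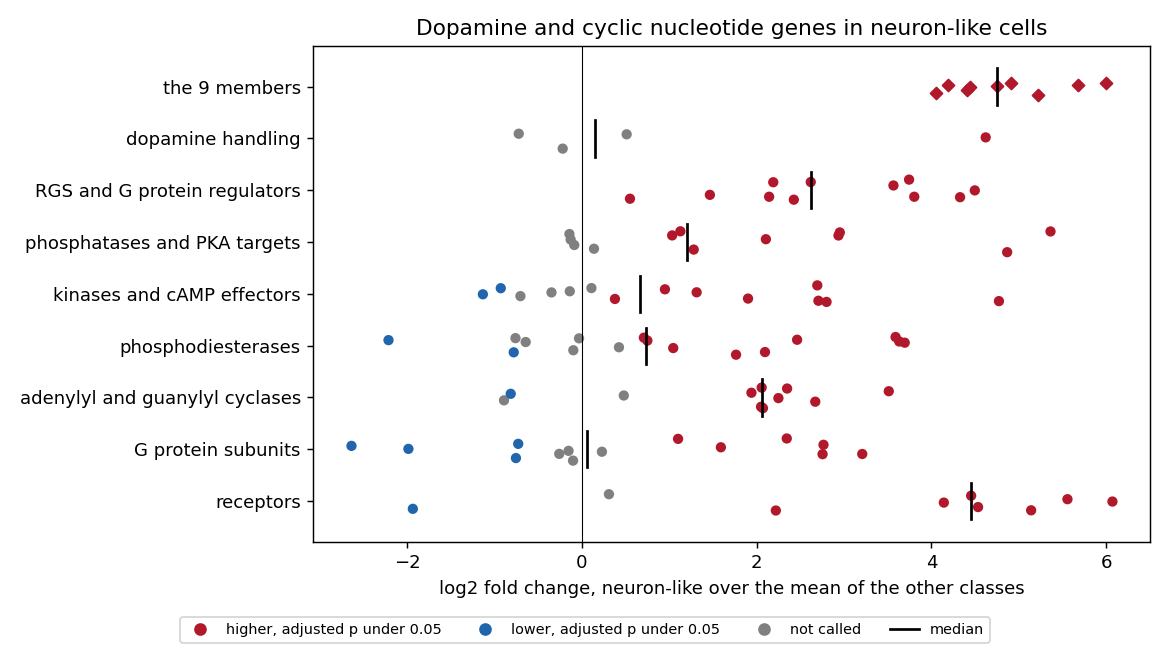
Log2 fold change of neuron-like cells over the mean of the other classes (x axis) for the tested pathway genes by role and for the 9 members, by edgeR call, with a black line at each median. The medians run from 0.065 for G protein subunits to 4.45 for receptors.

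Among other receptors 7 of 9 were higher and 1 lower. *Gpr6*, an orphan receptor, had a log2 fold change of 6.07 (SE 0.40) and *Cnr1*, the cannabinoid receptor, one of 5.14 (SE 0.15). *Adora2b*, a further adenosine receptor, fell by 1.93 (SE 0.61). All 11 regulators of G protein signalling on the list were higher by this fit, among them *Rasd2* (4.50, SE 0.19), *Rgs8* (4.33, SE 0.41), *Rgs4* (3.80, SE 0.15) and *Rgs7bp* (3.57, SE 0.16), which anchors RGS proteins of the RGS9 family. *Rgs4* was nevertheless at 909 ± 12.8 CPM in mural-like and 212 ± 38.1 CPM in neuron-like cells. Several regulators not named here also had a higher mean level in another class, while *Rasd2*, *Rgs8* and *Rgs7bp* were highest in neuron-like cells. Of 12 phosphatases and kinase targets 8 were higher and none lower, with *Arpp21* at 5.36 (SE 0.11) and *Pcp4*, a calmodulin-binding protein, at 4.87 (SE 0.13). The edgeR adjusted p of the pathway genes called ran up to 0.049.

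G protein subunits went both ways, with 6 of 14 higher and 4 lower, beside 27.7% and 24.1% of all genes. *Gng7*, a partner of Gαolf in the striatum, had a log2 fold change of 3.21 (SE 0.16) and *Gnaz* one of 2.76 (SE 0.47). *Gnai2* and *Gnai3*, inhibitory subunits, fell by 2.63 (SE 0.13) and 1.98 (SE 0.18), and *Gnas*, the more widely used stimulatory subunit, by 0.75 (SE 0.16). *Gnai1* (1.59, SE 0.22) and *Gnao1* (1.10, SE 0.18), like *Gnaz* subunits of the inhibitory family, were higher. Against the mean of the other classes that family thus went both ways. *Gnai1* was at 108 ± 27.8 CPM in neuron-like and 359 ± 4.56 CPM in oligodendrocyte-like cells. *Gnao1* was at 327 ± 12.1 CPM in neuron-like and 913 ± 21.7 CPM in astrocyte-like cells, while *Gnaz* was highest in neuron-like cells. *Gnb1* had a value of -0.15 (SE 0.10) and did not pass. Of 11 cyclases 8 were higher, among them *Adcy1* (3.51, SE 0.30) and both subunits of the nitric oxide receptor, *Gucy1b1* (2.67, SE 0.17) and *Gucy1a1* (2.35, SE 0.20). In mural-like cells *Gucy1b1* was at 448 ± 50.2 CPM, against 146 ± 0.449 CPM in neuron-like cells. *Adcy6* fell by 0.81 (SE 0.36), a call lost with library sizes alone.

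Of 16 phosphodiesterases 9 were higher and 2 lower. *Pde1a* had a log2 fold change of 3.69 (SE 0.25) and *Pde2a* one of 3.63 (SE 0.17), while *Pde5a* fell by 2.21 (SE 0.67) and *Pde6d* by 0.78 (SE 0.15). *Pde1a* was at 57.0 and 147 CPM in neuron-like and 127 ± 45.3 CPM in fibroblast-like cells. *Pde2a* was at 219 and 172 CPM in neuron-like cells, with a higher mean, 264 ± 54.6 CPM, in endothelial-like cells. *Pde5a* was at 1.97 and 0 CPM in neuron-like and 264 ± 8.44 CPM in mural-like cells. Its neuron-like counts were at or below the floor of 3 UMIs, so the size of its fall is uncertain. The endothelial-like and mural-like levels were the highest of these 2 genes outside neurons. Of 14 kinases and cyclic AMP effectors 8 were higher, among them the kinase anchor *Akap5* (4.77, SE 0.19), *Rapgef4* (2.80, SE 0.23) and the catalytic subunit *Prkacb* (0.95, SE 0.18), and *Creb1* and *Rapgef3* fell by 1.13 (SE 0.17) and 0.93 (SE 0.34). The *Rapgef3* call was lost with library sizes alone, and the regulatory subunit *Prkar1a* (-0.14, SE 0.11) did not pass. In dopamine handling 1 of 4 passed, beside 27.7% of all genes higher. It was *Th*, tyrosine hydroxylase (4.62, SE 1.11), at 38.0 and 10.4 CPM.

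Between the peptide groups 5 of 93 tested pathway genes passed, all higher in *Penk* neurons, beside 0.0881% of all genes. In *Tac1*/*Pdyn* neurons *Gpr6* fell by 5.58 (SE 0.52, adjusted p = 2.4e-08) on the log2 scale, *Gpr52* by 3.89 (SE 0.82, adjusted p = 0.019), *Gucy1a1* by 1.51 (SE 0.32, adjusted p = 0.028), *Arpp19* by 1.24 (SE 0.21, adjusted p = 0.0037) and *Gnb5*, whose product binds RGS9, by 1.24 (SE 0.20, adjusted p = 0.001), all by edgeR. These 5 were named after their values were seen. With cells thinned to 1000 UMIs 1 passed, *Gpr6*. The median of the list was -0.070, beside 0.043 for all genes.

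For each member the 3 genes most like it were taken by Pearson's r of log2(CPM + 10) across 24 sums of a library and a class, among 14319 genes. The sums share libraries and differ mostly by the neuron-like class, so r is a description. *Drd1* ran most like *Pde6a* (0.98), *Rnf207* (0.98) and *Il1rapl2* (0.98), *Drd2* like A830036E02Rik (0.98), *Kcnh3* (0.98) and *Cacng3* (0.98) and *Adora2a* like *Slc6a17* (0.98), *Itpr1* (0.94) and *Nexn* (0.91). *Gnal* ran most like *Rgs9* (0.97), *Slc35f3* (0.96) and *Fstl4* (0.96), and *Rgs9* like *Gnal* (0.97), *Fstl4* (0.96) and *Fam135b* (0.96), so that each was the other's nearest gene. *Adcy5* ran like *Epb41l1* (0.91), *Cacna2d1* (0.88) and *Slc6a17* (0.88), *Pde10a* like *Kcnip2* (0.94), *Ckmt1* (0.94) and *Scn2a* (0.93), *Pde1b* like *Itpka* (0.95), *Gnal* (0.92) and 2010300C02Rik (0.92) and *Ppp1r1b* like *Itpka* (0.93), *Kifc2* (0.92) and *Ngef* (0.92).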

How the data were processed

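Single-cell RNA was measured in 2 libraries of mouse striatum. The authors deposited raw UMI counts per gene and cell, made per the file headers with Cell Ranger 4.0.0 and per the submitters' processing notes on mm10, and these counts were used as deposited. Cells with at least 300 detected genes were kept (6898 and 5364), and cells marked by Scrublet with an expected rate of 6% (81 and 158 cells, or 1.17% and 2.95%) were left out. Cells were clustered in Seurat 5.3.0 under R 4.3.3 with 2000 variable genes, 30 principal components and a resolution of 0.08, without the members and pathway genes. Clusters were named from marker lists, and clusters for which more than 1 class qualified were divided by finer clusters at a resolution of 0.32, a step chosen after seeing the data.

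UMIs were summed per library and class with at least 20 cells in each library (10 for the peptide groups) and tested with the edgeR 4.0.16 quasi-likelihood test, TMM factors, filterByExpr and Benjamini-Hochberg adjustment over all genes tested, at 0.05 and two-sided. All classes of a library came from the same sample, so the library, which is the replicate number, was a block in the fit. Intervals and floors (3 UMIs) cover counting error only. On simulated counts the fit recovered 54% of 200 genes changed 2-fold and 83% of those changed 4-fold among 15176 genes for neuron-like cells against the others, and 7.5% and 52% among 14755 genes for the peptide groups. Apart from that change, each simulated gene had the same share in all classes of a library, with a common spread for all genes. Alternatives were DESeq2 1.42.0, library sizes alone, no filter, no block, a resolution of 0.32, other cell filters, doublets kept, thinning to 1000 UMIs, the members kept in the clustering, and each library left out.

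The members and lists were chosen with earlier results of these data known. Besides the members, the pathway genes named are, in each role, the 2 with the highest CPM in neuron-like cells and the 2 called genes with the largest change in each direction, of which 2 are not reported here. For each member the 3 genes of highest r are named, among genes with a mean of at least 10 CPM in 1 class.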

Additional observations from a re-analysis of the deposited data

Results flagged for a closer look

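Erythroid-like cells, which entered no comparison because library 2 held 11 of them, carried UMIs of 4 members above the floor of 3 UMIs in library 1, where 86 such cells were summed. They held 11 UMIs of *Adcy5*, 10 of *Ppp1r1b*, 6 of *Pde10a* and 5 of *Rgs9*. In library 2 the same cells held 2, 1, 0 and 0 UMIs. No sample served as a control for these counts, and their source was not tested.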

How the results depend on the processing

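All 9 members stayed higher in neuron-like cells than in the mean of the other classes under each tested alternative, and 3 members passed between the peptide groups under each of them. Of 83 recomputed counts 80 stayed within 1.5 times the reported one. With mixed clusters left unnamed, an alternative chosen after seeing the data, fewer classes remained, and 54 of 54 pairs passed for neuron-like cells and 10 of 54 outside neurons. With cells thinned to 1000 UMIs 3 pathway genes were lower in place of 10, and the differences between *Tac1*/*Pdyn* and *Penk* neurons turned to 0.056 for *Gnal*, 0.11 for *Adcy5* and 0.11 for *Pde1b*. With members and pathway genes in the clustering *Gnal* in ependymal-like cells turned to -0.44. The causes were not tested. Of the single values 513 kept their side of the threshold or, where there was no test, moved by less than the spread between libraries, among them *Pde10a* in astrocyte-like cells, where that spread was wide (0.34 and 2.44 in place of 1.60), 58 moved, 12 lost their call and 4 turned. Without the replicate block 99 pairs passed for neuron-like cells and 15 outside neurons in place of 17, with *Pde1b* (1.29, edgeR adjusted p = 0.075) and *Gnal* (1.16, adjusted p = 0.090) in ependymal-like cells lost, and the pathway genes lower in *Tac1*/*Pdyn* neurons went from 5 to 3. Leaving out a library left no replicates for the fits, so those values have no test. Without library 1 all 9 members' log2 fold changes of neuron-like cells over the mean of the other classes rose to between 4.65 and 6.99, beside 4.06 to 6.00 with both, and without library 2 they were 4.02 to 5.85. The 17 values higher outside neurons were 0.34 to 3.6 without library 1 and 0.58 to 3.32 without library 2. In each library 9 of 9 members had a higher share of cells with a UMI in neuron-like than in microglia-like cells. Leaving a library out keeps the shares of the other unchanged, so it is no further check, though it is among the 83 counts. The share of all genes for which this holds was not counted. Depth limits *Drd2* and *Adora2a* in *Tac1*/*Pdyn* neurons and all members in fibroblast-like cells.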
